A study of Mus musculus with 4 samples.

Results

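The nuclei described here are bone marrow progenitors of the mouse that were picked by their RNA for Dach1, Epha7, Slc24a3 and Mdga1, and they are called Dach1-set nuclei below. A kept nucleus had at least 200 genes detected and 1000 to 50000 ATAC counts in peaks. It was a member when its unique molecular identifiers (UMIs, single RNA molecules) of the 4 marker genes summed to 4 or more, those of the neutrophil granule protease genes Mpo, Elane, Ctsg and Prtn3 to 7 or fewer, and those of the stem cell regulators Mecom, Hlf and Prdm16 to 1 or fewer. Of 13619 kept nuclei, 154 were members, 126 of 5905 in library 1 and 28 of 7714 in library 2.

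Hematopoietic stem and progenitor cells (HSPCs), sorted as Lin- cKit+ cells, were profiled by single-nucleus multiome sequencing, which counts RNA and transposase-accessible chromatin (ATAC) in the same nucleus. The Ctrl samples came from unligated mice and the Lig samples from mice with silk ligatures around the molars for 14 days, a model of periodontitis. All were wild-type male C57BL/6 mice aged 8 weeks, the marrow of 5 mice was pooled per sample, and each of the 4 label groups (Ctrl RNA, Ctrl ATAC, Lig RNA and Lig ATAC) held 1 sample. No label tied barcode suffix 1 or 2 to Ctrl or Lig, so the suffixes are called library 1 and library 2, belong to no group, and no comparison of Lig with Ctrl was made. With 1 sample per condition there was no replicate and no test, and the bounds given in parentheses are exact limits at 95% confidence for counting error alone.

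Early progenitors of the marrow keep several fates open, and the stem cell, megakaryocyte and erythroid programs share regulators in them, among them Gata2, Meis1, Tal1 and Runx1. DACH1 is a nuclear cofactor of transcription that works with EYA proteins, EPHA7 is a receptor for ephrins on neighbouring cells, SLC24A3 exchanges sodium for calcium and potassium, and MDGA1 is a membrane-anchored protein that binds neuroligins. GATA factors bind the letters GATA in open chromatin and act in stem, megakaryocyte, erythroid and mast cells, while RUNX factors act across blood lineages.

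Stretches of chromatin that were more open in Dach1-set nuclei are printed first, to show the peaks described below. Each is a 120-base window of a peak that was more accessible in members of library 1, read 5′ to 3′ on the + strand of GRCm38. Capitals mark the GATA motif AGATAA or the RUNX motif TGTGGTT, or the reverse complement of either.
Mdga1 intron, chr17:29860022-29860141: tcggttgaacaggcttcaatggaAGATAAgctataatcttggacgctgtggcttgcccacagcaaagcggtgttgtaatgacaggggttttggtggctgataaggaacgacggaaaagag
Gse1 intron, chr8:120371889-120372008: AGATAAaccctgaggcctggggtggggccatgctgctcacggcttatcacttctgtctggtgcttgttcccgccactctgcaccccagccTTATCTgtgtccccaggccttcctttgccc
Rftn1 intron, chr17:50020472-50020591: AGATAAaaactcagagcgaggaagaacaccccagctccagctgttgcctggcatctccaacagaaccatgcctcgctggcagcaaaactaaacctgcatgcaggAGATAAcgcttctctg
Dlgap1 intron, chr17:70488950-70489069: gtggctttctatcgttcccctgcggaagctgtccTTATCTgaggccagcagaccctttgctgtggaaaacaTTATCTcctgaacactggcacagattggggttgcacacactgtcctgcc
Tmem131 intron, chr1:36919766-36919885: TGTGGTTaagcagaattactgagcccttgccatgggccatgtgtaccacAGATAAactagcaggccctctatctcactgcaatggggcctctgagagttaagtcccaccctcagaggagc
The windows were picked after the data were seen, from peaks with high ratios in library 1, and each was placed over motif matches, so their letters are no measure of how common a motif is.

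Members made up 2.13% (1.78 to 2.54) of library 1 and 0.363% (0.241 to 0.524) of library 2. The shares depended on the limits. They were 3.74% and 0.946% with a minimum of 3 marker UMIs, 1.39% and 0.143% with 5, and 2.78% and 0.956% among nuclei with at least 500 genes. The depth of the members was above that of the other nuclei, with a median of 1934 UMIs against 1634 in library 1 and 1874 against 1515 in library 2. Outside the ribosomal locus (Gm42418, Gm26917 and AY036118) the medians were 1203 against 948 UMIs and 889.5 against 722. Median genes were 826.5 against 633 and 571 against 409. In other nuclei that locus held a median of 42.4% of UMIs in library 1 and 52.4% in library 2. Library 2 was thus shallower, and the rule counts raw UMIs, so the 2 shares are not matched for depth. In a further reading, nuclei with fewer than 500 UMIs outside the ribosomal locus were left out and the rest were thinned to 500. With limits lowered to 2 marker, 3 protease and 0 stem UMIs, the shares of these nuclei were 3.67% and 1.56%. First quartiles of such UMIs in other nuclei were 663 and 546, so the nuclei left out differed between libraries. Depth, limits and the nuclei kept changed together there, so these shares cannot be set against the unthinned ones. Of the 155 nuclei of library 1 with 4 or more marker UMIs, the protease limit left out 9 and the stem limit 20. In library 2 the numbers were 31, 3 and 0. Across the libraries 146 barcode sequences occurred in both, and 4 members carried such a barcode. Without those barcodes the shares were 2.14% and 0.341%.

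Dach1 carried most of the rule. It gave 569 UMIs in members of library 1, at 3651 CPM (counts-per-million of the UMIs outside the ribosomal locus, summed over nuclei) against 210.2 in the other nuclei, and 106 UMIs in library 2, at 3948 CPM against 156.5. All members held at least 1 Dach1 UMI, and 53 of 126 and 16 of 28 held no UMI of the other marker genes. Slc24a3 was present in 42 members of library 1 and 9 of library 2, Mdga1 in 43 and 3, and Epha7 in 10 and 2. At least 2 of the marker genes were detected in 73 members (57.9%, 48.8 to 66.7) of library 1 and 12 (42.9%, 24.5 to 62.8) of library 2. These values chose the members and are given as a description.

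Membership was a range rather than a separate group. In library 1, 95 nuclei with 3 marker UMIs met the other limits and lay just outside, 44 members had 4, 56 had 5 or 6, and 26 had 7 or more. In library 2 the numbers were 45, 17, 11 and 0. Nuclei just outside had 179.6 CPM of Itga2b and 853.2 of Prkg1 in library 1, against 244.8 and 693.5 in members with 4 marker UMIs. Nuclei with 0 marker UMIs had 8.95 and 41.2 CPM of the same genes.

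Genes were first compared in both libraries at once, with at least 50 UMIs in members, or expected from the other nuclei, in each library. Only 17 genes reached that minimum, and none was 2-fold higher or lower in both (0% of 17 in each direction), since library 2 held only 28 members. Library 1 was therefore read alone for genes with at least 10 UMIs expected in members, an order set after the data were seen. In it 70 of 3097 genes (2.26%) were at least 2-fold higher in members and 153 (4.94%) at least 2-fold lower. The RNA of these nuclei chose them, so the counts in library 1 describe the members. In library 2, the 70 higher genes summed to 423 UMIs in members, at 2.51 times (2.28 to 2.77) the other nuclei, and 56 of 70 had a ratio above 1, against 52.7% of all genes tested. The 153 lower genes summed to a ratio of 0.788 (0.698 to 0.887) in library 2, and 51 of them lay above 1. The members of library 2 were chosen by the same rule, so these ratios are a repeat in other nuclei and not an independent measure.

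Of the regulators of early progenitors, Meis1 was among the 70 higher genes and others differed less or had too few expected UMIs to be called. Meis1, a homeodomain factor of stem and progenitor cells, stood at 1020 CPM in members of library 1 against 247.7 in the other nuclei, with ratios of 4.12 (3.47 to 4.86) and 3.13 (1.49 to 5.79). Gata2, a GATA factor of stem and mast cells that fell below the minimum of expected UMIs, had 44 UMIs in 31 members of library 1, a ratio of 5.46 (3.89 to 7.52), and 4 UMIs in 3 members of library 2, a ratio of 4.19 (1.13 to 10.9). Runx1 was 1.54 (1.37 to 1.72) and 2.23 (1.63 to 2.98) times as high, Cdk6, a cell cycle kinase of progenitors, 1.98 (1.80 to 2.18) and 1.5 (1.07 to 2.05) times, and Myb 1.62 (1.39 to 1.87) and 1.58 (0.986 to 2.39) times. Erg, an ETS factor of stem cells, stood at 198.9 CPM in members and 199.0 in the other nuclei of library 1, so early genes did not all differ.

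Signalling and surface genes were among the 70 higher genes. Prkg1, a cGMP-dependent kinase, had 139 UMIs in 54 members of library 1 and 16 in 10 members of library 2, at ratios of 8.10 (6.69 to 9.74) and 8.48 (4.80 to 13.9). Med12l, a paralog of the Mediator subunit MED12, had ratios of 7.26 (5.69 to 9.17) and 10.1 (5.94 to 16.2). Angpt1, the ligand of the receptor TEK on stem and endothelial cells, was the most abundant of these genes. It stood at 2663 CPM against 506.8 in library 1 and at 1154 against 251.6 in library 2, ratios of 5.25 (4.73 to 5.83) and 4.59 (3.11 to 6.54). Tgfbr3, a co-receptor for TGF-beta, had ratios of 5.50 (4.14 to 7.2) and 4.03 (1.61 to 8.39), and the organic cation transporter Slc22a3 5.44 (4.19 to 6.96) and 2.60 (0.533 to 7.69). Angpt1, Meis1, Prkg1 and Med12l were not particular to members. The stem gate (3 or more UMIs of Mecom, Hlf and Prdm16, which the rule bars in members) had 3249 CPM of Angpt1, 1613 of Meis1 and 918.1 of Prkg1 in library 1, against 2663, 1020 and 891.9 in members, and 1390 CPM of Angpt1 in library 2, against 1154. Gata2 stood at 87.8 CPM and Itga2b at 71.9 in the stem gate of library 1, against 282.3 and 269.5 in members. Only 5 nuclei of library 1 passed the megakaryocyte gate (4 or more UMIs of Vwf, Itga2b and Pf4) without being members, and they had 2405 CPM of Med12l (1541 to 3579), 2205 of Prkg1 (1382 to 3338) and 2305 of Meis1 (1461 to 3458), above the members, but 601.3 of Angpt1 (220.7 to 1309). Their Itga2b level is set by the gate, and Gata2 had 1 UMI in them. The kinase Tnik, the transcription factor Ikzf2, the adhesion receptor Adgrl2, the RhoGAP Arhgap6 and the semaphorin receptor Plxnc1 lay between 3.69 and 4.35 in library 1. Library 2 gave 3.79, 2.08, 7.78, 8.52 and 1.74 for the same genes.

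Free RNA in the droplets can give UMIs in nuclei that do not express a gene, so nuclei with at least 4 UMIs of the B cell factors Ebf1 and Pax5 (the B gate) were read beside the members. A UMI of Angpt1 was found in 109 of 126 members of library 1, in 21.4% of the other nuclei and in 7.61% of the B gate, with a median depth of 1667 UMIs in the B gate. Itga2b was found in 26 members (20.6%, 13.9 to 28.8), in 1.96% of the other nuclei and in 0.203% of the B gate. Dach1 itself was found in 13.9% of the other nuclei and in 3.15% of the B gate.

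**Figure D1:**
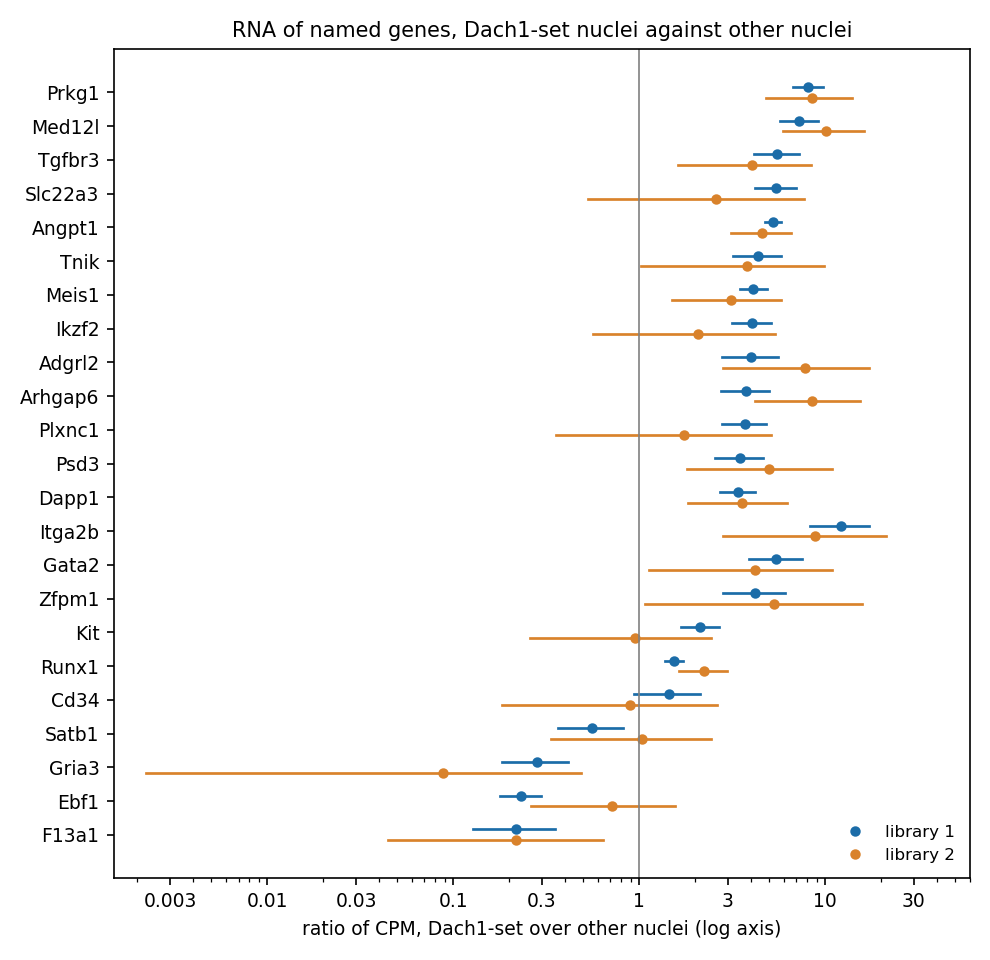
Ratio of CPM in Dach1-set nuclei over other kept nuclei of the same library, on a log axis, for named genes in library 1 (blue, 126 members) and library 2 (orange, 28 members). Points are ratios and lines exact 95% intervals for counting error. Prkg1, Med12l, Angpt1 and Itga2b lie above 3 in both libraries, and F13a1 and Gria3 below 0.3.

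Lists of lineage genes, chosen with earlier results of these data known, were summed to place the members. The early progenitor list of 14 genes stood at 14521 CPM in members of library 1 against 7034 in the other nuclei, a ratio of 2.06 (1.98 to 2.15), and at a ratio of 1.77 (1.53 to 2.02) in library 2. Of its 12 genes tested in library 1, 4 were at least 2-fold higher (Angpt1, Meis1, Adgrl4 and Kit) and 0 lower, beside 2.26% and 4.94% of all genes tested, with a median ratio of 1.70 beside 1.03. Without Angpt1 and Meis1 the list ratio was 1.73 and 1.55. Kit, the receptor by which the cells were sorted, had ratios of 2.13 (1.67 to 2.67) and 0.951 (0.258 to 2.44), and Cd34 of 1.45 (0.937 to 2.14) and 0.892 (0.184 to 2.62). The summed list was thus higher in members than in the other nuclei, which include B cell and myeloid nuclei. The interval of Cd34 includes 1 in both libraries and that of Kit in library 2. The list was chosen with earlier results known and was not summed for the stem gate, so the label of early progenitors was not tested. The megakaryocyte list, given below, had larger ratios in both libraries.

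Stem cell genes that the rule did not use (Myct1, Procr, Fgd5, Ly6a, Slamf1, Tek, Mllt3 and Esam) summed to 47 UMIs in members of library 1, a ratio of 1.87 (1.37 to 2.51), and to 2 in library 2, a ratio of 0.873 (0.105 to 3.17). Of the 47, Mllt3, a chromatin reader of stem cells, gave 29, at a ratio of 1.5 (0.999 to 2.18), and Myct1 gave 9, at 3.33 (1.48 to 6.58). Procr had 0 UMIs in members of either library, and Ly6a and Fgd5 had 1 each and Slamf1 3 in library 1. Of the genes capped by the rule, Mecom had 12 UMIs, Hlf 7 and Prdm16 3 in members of library 1.

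The megakaryocyte list had a ratio of 5.41 (4.25 to 6.81) in library 1 and 6.90 (3.64 to 11.9) in library 2. Itga2b, the integrin CD41 of megakaryocytes and early progenitors, gave 42 of its 84 UMIs in library 1, at a ratio of 12.1 (8.34 to 17.3), and 5 of 13 in library 2, at 8.85 (2.82 to 21.2). Zfpm1, the GATA cofactor FOG1, gave 32 and 3 UMIs, at 4.2 (2.82 to 6.07) and 5.31 (1.08 to 15.9). The platelet genes Gp9, Gp1bb and Selp were at 0 in members of both libraries, Vwf had 5 and 2 UMIs and Pf4 2 and 2. The megakaryocyte gate was passed by 4 of 126 members (3.17%, 0.872 to 7.93) in library 1, out of 9 nuclei of the library that passed, and 0 of 28 in library 2, where 3 counts of the total give a share of up to 10.7% (exact upper limit 12.3%). At least 1 UMI of the list was found in 34.9% of members of library 1 and 25% of library 2, against 7.86% and 4.62% of the other nuclei.

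A list of 11 erythroid genes summed to 90 UMIs in members of library 1, a ratio of 1.70 (1.36 to 2.10), and to 10 in library 2, at 1.46 (0.700 to 2.70). The carbonic anhydrase Car2 gave 46 of the 90 and 4 of the 10, and without it the list lay at 1.20 (0.867 to 1.62) and 1.21 (0.442 to 2.64). Car2 had ratios of 2.82 (2.04 to 3.81) and 2.14 (0.580 to 5.52), Gata1 had 5 UMIs and Klf1 2 in members of library 1, and the transferrin receptor Tfrc lay at 0.509 (0.262 to 0.893) and 1.07 (0.290 to 2.75). The basophil and mast list had ratios of 1.81 (1.18 to 2.67) on 27 UMIs and 0.815 (0.0985 to 2.96) on 2. Its mast cell protease Cpa3 gave 16 of the 27 UMIs, in 12 members of library 1, a ratio of 6.66 (3.65 to 11.4), and 1 UMI in library 2. The list value of library 1 thus rests mostly on Cpa3, and the list was not read without it.

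Monocyte, granulocyte-monocyte and, in library 1, lymphoid-primed lists were lower. The monocyte list had ratios of 0.252 (0.181 to 0.342) and 0.232 (0.0849 to 0.504), with its transglutaminase F13a1 at 0.219 (0.127 to 0.351) and 0.217 (0.0448 to 0.636), and with 6 UMIs of the monocyte and dendritic factor Irf8 in members of library 1 and 0 in library 2. A list of F13a1 with the neuronal-type genes Nrg1, Stxbp6 and Gria3, which mark a myeloid group in these data, had ratios of 0.224 (0.162 to 0.302) and 0.174 (0.0566 to 0.407). The granulocyte-monocyte list lay at 0.639 (0.468 to 0.852) and 0.493 (0.246 to 0.882), with the protease genes of the rule kept out of it. Nuclei with 8 or more protease UMIs, barred from the members, made up 7.96% and 11.3% of kept nuclei. The rule itself may therefore lower this list. The lymphoid-primed list was at 0.390 (0.295 to 0.506) in library 1, with 4 of 5 tested genes at least 2-fold lower (4.94% of all genes tested), Flt3 at 0.384 (0.209 to 0.646) and the terminal transferase Dntt at 0.304 (0.131 to 0.601), and at 0.698 (0.348 to 1.25) in library 2. The plasmacytoid dendritic list lay at 0.775 (0.641 to 0.928) and 1.09 (0.622 to 1.77). No member passed a lymphoid-primed gate of 4 UMIs of Flt3 and Dntt, but 3 counts of 126 give an upper limit of 2.38% (exact 2.89%) and 1.91% of all kept nuclei of library 1 passed, so a difference was not detectable at this depth.

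Some members held RNA of B cell or late neutrophil genes. The B cell list lay at 0.231 (0.185 to 0.286) and 0.706 (0.322 to 1.34), and 4 members of library 1 (3.17%, 0.872 to 7.93) and 1 of library 2 (3.57%, 0.0904 to 18.3) passed the B gate, against 16.7% and 2.33% of all kept nuclei. The late neutrophil list, with the calgranulins S100a8 and S100a9, lay at 0.501 (0.391 to 0.633) in library 1 and at 1.25 (0.963 to 1.60) in library 2. A single member of library 2 held 50 of its 64 UMIs, and without that nucleus the ratio was 0.286 (0.156 to 0.481). With all 10 members of library 1 and 1 of library 2 that passed any gate left out, the early progenitor list stood at 2.07 and 1.81 and the megakaryocyte list at 4.39 and 7.28. No doublet caller was run, and the part of doublets in these nuclei was not tested. Lists of NK and T cells (1 and 0 UMIs) and of endothelial and stromal cells (2 and 1 UMIs) were at or near 0 in members.

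Ratios of the cell cycle lists lay on opposite sides of 1 in the 2 libraries. The S phase list lay at 0.893 (0.830 to 0.960) in library 1 and at 1.23 (1.03 to 1.44) in library 2, and the G2/M list at 0.912 (0.859 to 0.968) and 1.33 (1.16 to 1.52). For S phase, members had 4870 and 5363 CPM and other nuclei 5453 and 4372. For G2/M, members had 7206 and 7895 CPM and other nuclei 7899 and 5942. These values do not rank the change between libraries in members against that in other nuclei. In library 2 the member intervals were wide, 4523 to 6314 CPM for S phase and 6868 to 9032 for G2/M. The make-up of the totals differed too, with Gm20594 alone at 73093 CPM in other nuclei of library 1 and 126186 in library 2. The list of interferon response genes, the pathway the study follows, lay at 0.994 (0.789 to 1.24) and 0.874 (0.436 to 1.57), with 82 and 11 UMIs in members, so a difference inside these bounds was not detectable at this depth.

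**Figure D2:**
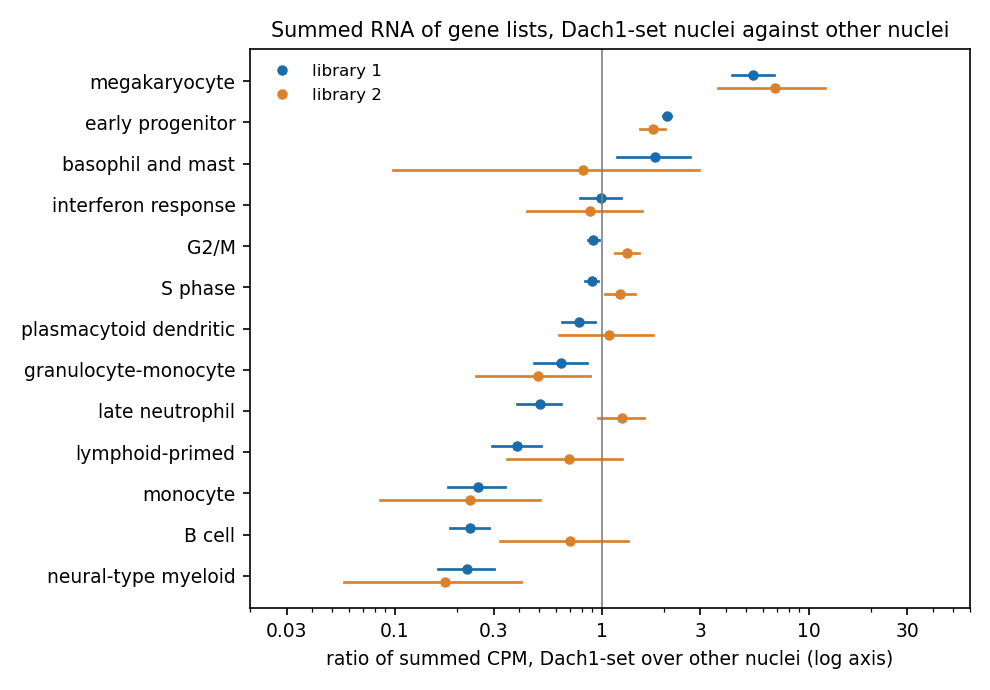
Ratio of summed CPM of gene lists in Dach1-set nuclei over other kept nuclei of the same library, on a log axis, with exact 95% intervals for counting error (blue, library 1; orange, library 2). The megakaryocyte and early progenitor lists lie above 1 in both libraries and the monocyte and neural-type myeloid lists below 0.5, while the late neutrophil and cell cycle lists lie on opposite sides of 1.

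ATAC counts were not used by the rule beyond the limits on their total, so chromatin is a separate measure of the same nuclei. Levels are given as ATAC CPM, the counts-per-million of all ATAC counts in peaks, and intervals were taken on halved counts because 82.5% of nonzero peak entries were even numbers, so that 1 fragment may give a pair of counts. The 100 peaks in the 4 marker genes and the 2000 bases before their starts were 1.21 times (1.11 to 1.31) as accessible in members as in other nuclei of library 1 and 1.19 times (0.987 to 1.41) in library 2. Mdga1 had the highest ratio of the marker genes in library 1, 1.62 (1.42 to 1.84), but not in library 2, where it had 1.31 (0.953 to 1.79). Dach1, whose RNA was 17.4 and 25.2 times as high, had ratios of 1.20 (0.894 to 1.57) and 1.13 (0.610 to 2.07), Epha7 1.0 (0.813 to 1.24) and 1.40 (0.960 to 2.04), and Slc24a3 0.988 (0.849 to 1.14) and 1.02 (0.738 to 1.36). At the Dach1 promoter the ratio was 1.59 (1.11 to 2.20) in library 1 on 74 counts, and 0.944 in library 2 on only 9.

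An intron of Mdga1 held the marker gene peak with the largest ratio in library 1. In library 2 other peaks had larger ratios, each on 8 counts or fewer in members. The peak at chr17:29859644-29860520, 110005 bases from the start of the gene, had 148 counts in members of library 1, at 56.1 ATAC CPM (44.0 to 70.4) against 13.5 in other nuclei, and 18 counts in library 2, at 33.0 (15.1 to 62.7) against 12.3. The ratios were 4.15 (3.22 to 5.27) and 2.69 (1.23 to 5.14). The peak was open, with at least 1 count, in 42.9% (34.1 to 52.0) of members against 10.7% of other nuclei of library 1, and in 25% (10.7 to 44.9) against 8.81% in library 2. Members of library 1 without any Mdga1 UMI had 51.4 ATAC CPM (37.1 to 69.4), and members with such a UMI had 63.9 (43.6 to 90.5). Some other groups of nuclei reached the level of the members and others did not. The stem gate had 41.9 ATAC CPM (29.7 to 57.4) in library 1 and 60.1 (26.8 to 116.2) in library 2, the latter above the members there. The 9 nuclei that the protease limit left out of library 1 had 60.9 (24.5 to 125.5). An erythroid gate of 4 or more UMIs of Car1, Ank1, Klf1 and Sptb, with 16 and 4 nuclei and no member, had 77.9 (42.6 to 130.8) and 68.3 (14.1 to 199.6). The B gate of library 1 had 2.54 (1.62 to 3.79). Without this peak the ratio over the marker genes was 1.10 (1.0 to 1.2) and 1.14 (0.949 to 1.37).

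Accessibility of this peak went with the number of marker UMIs outside the members too. In library 1 it was 8.64 ATAC CPM in nuclei with 0 marker UMIs, 27.6 with 1, 39.6 with 2 and 52.3 with 3, and 49.5, 57.6 and 62.3 in members with 4, 5 or 6, and 7 or more. In library 2 the values below the limit were 10.5, 25.6, 31.6 and 55.3, and members had 38.3 and 22.3 on 14 and 4 counts. The intervals of neighbouring classes overlap from 1 marker UMI upward, while those of 0 and 1 do not. At Gapdh, a housekeeping gene, the same classes of library 1 lay between 52.4 and 67.1 ATAC CPM with no order.

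**Figure D3:**
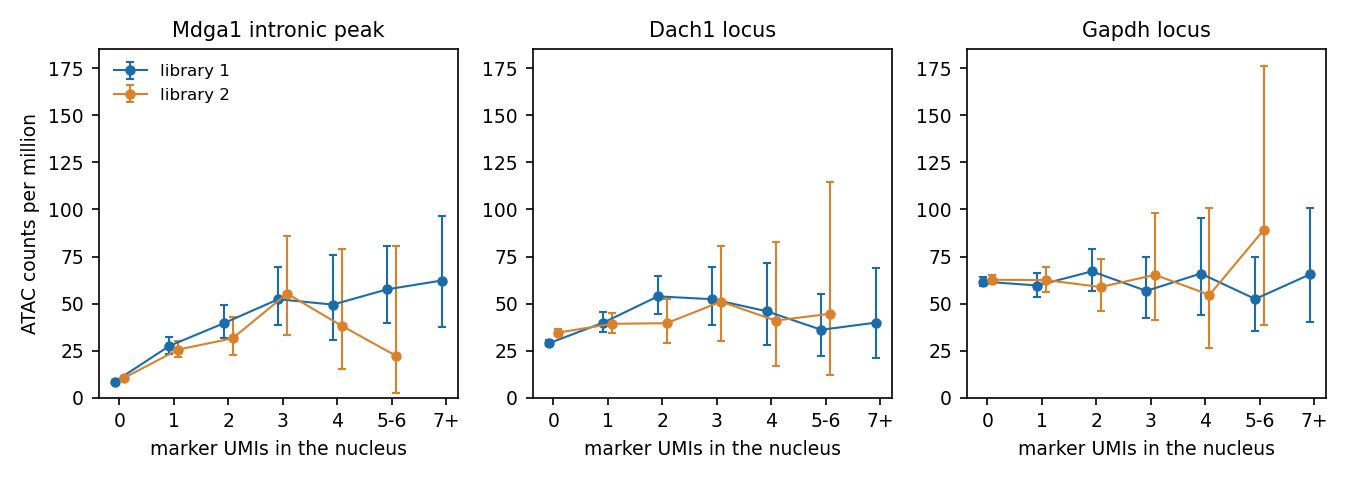
ATAC CPM at the intronic Mdga1 peak, over the peaks of the Dach1 locus and over the Gapdh locus, by the number of marker UMIs in the nucleus (members have 4 or more; blue, library 1; orange, library 2). Bars are exact 95% intervals for counting error. The Mdga1 peak goes from 8.64 to 52.3 ATAC CPM between 0 and 3 marker UMIs in library 1, while Gapdh shows no order.

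Loci of other named genes were compared in the same way. Itga2b was 1.52 (1.27 to 1.80) and 1.76 (1.18 to 2.45) times as accessible in members, Gata2 1.45 (1.14 to 1.82) and 1.81 (1.16 to 2.80), Meis1 1.31 (1.14 to 1.51) and 1.41 (1.02 to 1.87), Ikzf2 1.49 (1.26 to 1.75) and 1.69 (1.19 to 2.33), and Prkg1 1.22 (1.07 to 1.38) and 1.42 (1.07 to 1.82). For these 5 genes both intervals lie above 1. Other loci that were read did not follow. Erg lay at 0.882 (0.775 to 0.999) in library 1 and 0.814 (0.596 to 1.09) in library 2. Kit lay at 1.09 and 0.869, and the housekeeping gene Actb at 1.10 and 1.23, with intervals that include 1 in both libraries. Loci of early progenitor genes were thus not all more open in members. Angpt1 gave 1.33 (1.14 to 1.54) in library 1 and 1.02 (0.689 to 1.46) in library 2, and Med12l 1.05 (0.952 to 1.16) and 0.966 (0.762 to 1.21). The B cell genes Ebf1 and Pax5 were at 0.619 (0.492 to 0.768) and 0.698 (0.559 to 0.860) in library 1, and at 0.533 (0.243 to 0.934) and 0.364 (0.168 to 0.766) in library 2. Irf8 was at 0.612 (0.446 to 0.805) and 1.22 (0.723 to 1.93), and F13a1, whose RNA was lower, at 1.03 (0.735 to 1.37) and 0.366 (0.114 to 1.07). Across the 70 genes with higher RNA the median ATAC ratio was 1.16 in library 1 and 1.10 in library 2, beside 1.01 and 1.0 over all genes tested, and across the 148 genes with lower RNA and peaks it was 0.881 and 0.914.

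No peak was 2-fold higher or lower in both libraries at the minimum of 40 counts in each (0% of 1031 peaks in each direction). Library 2 held only 28 members, so that minimum admitted only widely open peaks and largely set the 0%. The Tmem131 peak described below, with 30 counts in members of library 2, could not enter. In library 1 alone, with at least 20 counts expected in members, 403 of 29765 peaks (1.35%) were at least 2-fold higher and 2754 (9.25%) at least 2-fold lower, a reading added after the data were seen. Library 2 was not used to choose these peaks. In it the 403 higher peaks had 8219 ATAC CPM in members against 4128 in other nuclei, a ratio of 1.99 (1.91 to 2.08), and 337 of 403 (83.6%) had a ratio above 1, beside 47.1% of all peaks tested. The 2754 lower peaks had a ratio of 0.520 (0.504 to 0.536) in library 2, with 441 above 1. Without members that passed any gate, the higher peaks stood at 2.47 in library 1 and 2.0 in library 2.

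The higher peaks, like the lower ones, lay mostly away from gene starts. Of the 403, 35 (8.68%) were within 1 kb of a start, against 5.37% of the lower peaks and 36.0% of all peaks tested, 168 were intronic, 62 exonic and 138 intergenic. Among the largest was the Gse1 intron peak printed above, at a ratio of 4.86 (3.5 to 6.6) in library 1 and 5.20 (2.10 to 9.75) in library 2, open in 26.2% of members against 5.81% of other nuclei of library 1. Gse1 had 3 such peaks, and its RNA was 2.68 (2.23 to 3.2) and 2.78 (1.55 to 4.6) times as high. The peak in Dlgap1 had ratios of 4.53 (3.29 to 6.11) and 5.77 (2.96 to 10.2) and was open in 39 of 126 and 11 of 28 members. The peak in Tmem131 had 4.18 (3.17 to 5.41) in library 1 and 7.09 (3.93 to 11.8) in library 2, and was open in 10 of 28 members of library 2 against 5.87% of other nuclei. The peak in Rftn1 had 4.68 (3.53 to 6.09) and 2.70 (1.08 to 5.59), and was open in 36.5% of members of library 1 and in 3 of 28 of library 2. The largest ratio, 5.83 (4.29 to 7.79), was at an intergenic peak at -200712 bases from the start of Gadl1, chr9:115708279-115709207, which had only 5 counts in members of library 2 and a ratio of 1.22 (0.118 to 3.56). A peak 3899 bases inside Runx1 had 136 counts in library 1, at 3.59 times the other nuclei, and 21 in library 2. Over the whole Runx1 locus the ratios were 1.045 and 1.06.

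Read by group of nuclei, medians over the 403 peaks were ordered by marker UMIs in library 1, which chose the peaks, but not in library 2. A member of library 1 had a median of 10386 ATAC CPM in them (quartiles 8496 to 12169) and a member of library 2 8171 (7491 to 9486). Nuclei with 3 marker UMIs had medians of 8797 and 7276, with 2 marker UMIs 7390 and 8092, with 1 marker UMI 4803 and 5320, and with none 3186 and 3471. The stem gate had 7415 and 7337, below the members of both libraries, the erythroid gate 7673 and 7325, and the few nuclei of the megakaryocyte gate that were not members (5 and 1) 9486 and 9759. The B gate was lowest, at 2668 and 2891, and the gate of 4 UMIs of F13a1, Nrg1, Stxbp6 and Gria3 had 2996 and 2928. Members with Dach1 alone summed to 11366 ATAC CPM in library 1 and those with 2 or more marker genes to 9484, and in library 2 the values were 7933 and 8562. Library 1 chose the peaks, its members and its other nuclei alike, and library 2 did not.

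**Figure D4:**
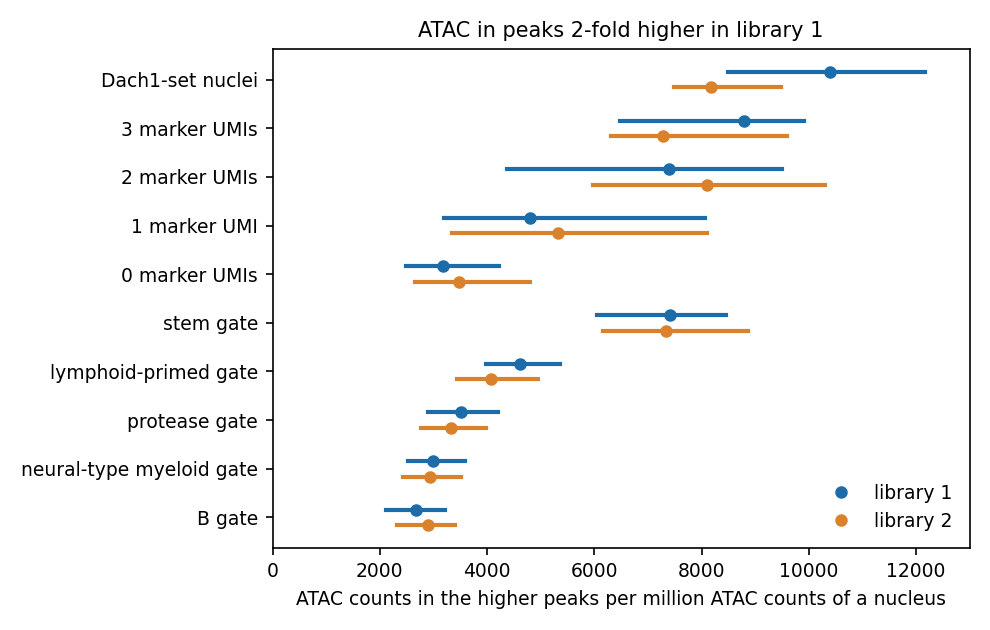
ATAC counts in the 403 peaks that were at least 2-fold higher in library 1, as ATAC CPM of each nucleus. Points are medians over nuclei and lines span the quartiles, by group (blue, library 1; orange, library 2). Medians go from 3186 with 0 marker UMIs to 10386 in members of library 1, and the stem gate of that library lies at 7415. Members of library 1 chose these peaks. The megakaryocyte gate (9486, 5 nuclei) and the erythroid gate (7673, 16 nuclei) of that library are not drawn.

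Motif letters were searched on both strands in 174235 peaks with sequence. The letters AGATAA of the GATA motif were found in 224 of the 403 higher peaks (55.6%), in 29.2% of the lower peaks, in 25.2% of all peaks tested and in 35.1% of all peaks. Among peaks farther than 1 kb from a start, they were in 59.2% of the higher, 29.4% of the lower and 30.5% of those tested. The RUNX letters TGTGGTT, which can share at most 2 bases with the GATA letters, were in 37.0%, 25.5% and 19.8% of the same sets, in 23.4% of all peaks, and in 39.7%, 25.8% and 25.4% of the distal ones. TGATTTAT (HOX and MEIS) was in 4.22% of the higher and 2.06% of tested peaks, from 17 peaks, and in 3.29% of all. GAGGAAGT (PU.1) was in 14.1%, 19.6% and 12.9%, and in 13.7% of all peaks, and TTGCNNAA (CEBP) in 29.3%, 36.1% and 28.0%, and in 31.4% of all. Median length was 890 bases in higher and lower peaks and 886 in all tested, and median GC content 50.4%, 48.6% and 53.4%. Among distal peaks GC was 50.1% in the higher and 50.2% in those tested. Over all tested peaks, those with GATA or RUNX letters took similar shares of the ATAC counts in members and other nuclei. GATA peaks held 20.3% of the counts of members and 20.1% of those of other nuclei in library 1, and 20.1% and 20.2% in library 2. RUNX peaks held 14.9% and 15.3%, and 14.9% and 15.4%. The median ratio was 0.982 in tested peaks with the GATA letters and 0.987 in those without in library 1, and 0.939 and 0.969 in library 2. A match says that the letters are present, not that a factor is bound.

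**Figure D5:**
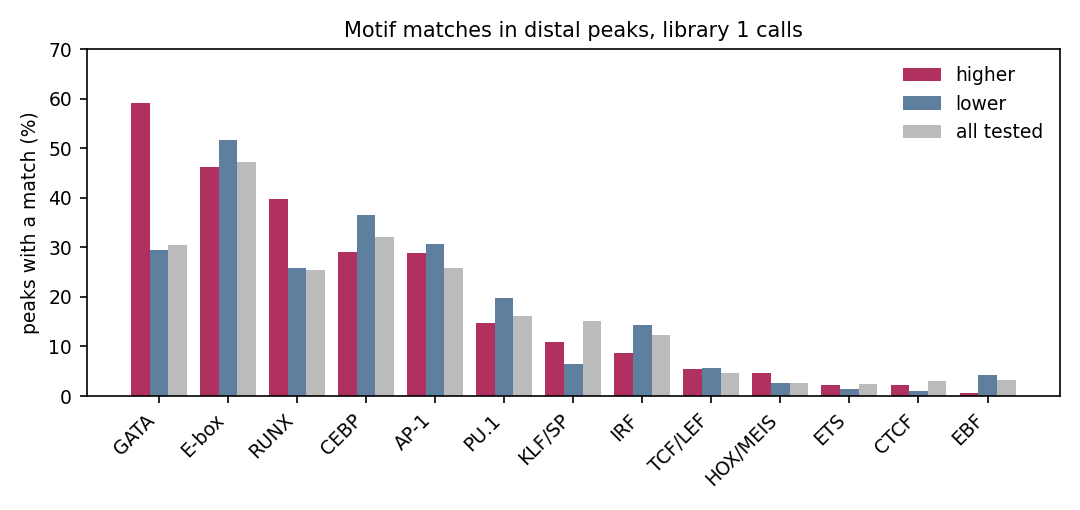
Share of peaks with a motif match on either strand, among peaks farther than 1 kb from a gene start, for peaks at least 2-fold higher (368 peaks), at least 2-fold lower (2606) and all tested (19059) in library 1. GATA matches stand at 59.2% of the higher peaks against 30.5% of those tested, and RUNX at 39.7% against 25.4%.

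Neighbours were then found by chromatin alone, as the 30 nearest nuclei of the same library on components 2 to 30 of latent semantic indexing of the peaks. In library 1, 14.6% of the neighbours of members were members, which make up 2.12% of the library, and 111 of 126 members had such a neighbour. In library 2 the values were 2.02% and 0.350%, and 13 of 28. Nuclei of the B gate made up 1.38% of the neighbours in library 1, against 16.7% of the library, and 5 members had any. One of them had 24 of its 30 neighbours in the B gate. In library 2 a single member accounted for all 12 B gate neighbours. Nuclei of the stem gate made up 4.31% of the neighbours, against 1.73% of library 1, and 0.595% against 0.246% in library 2. The 5 nuclei of the megakaryocyte gate made up 0.370% against 0.0847% in library 1, next to 11 members, and the 1 of library 2 0.119% against 0.0130%. The erythroid gate made up 0.397% against 0.271% in library 1 and none in library 2.

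Nuclei next to members in chromatin that were not members were also higher in marker RNA. In library 1, 1134 such nuclei had 958.8 CPM of the marker genes against 178.3 in the rest, a ratio of 5.38 (4.90 to 5.90), and in library 2, 593 had 811.2 against 189.9, a ratio of 4.27 (3.75 to 4.85). Itga2b was 15 (9.83 to 23.6) and 7.78 (5.25 to 11.4) times as high in them, Prkg1 13.1 (10.9 to 15.8) and 8.81 (7.18 to 10.8), Gata2 9.50 (7.40 to 12.3) and 7.24 (5.35 to 9.71), Angpt1 6.68 (6.20 to 7.21) and 6.49 (5.81 to 7.25), and Mdga1 8.04 (5.78 to 11.3) and 6.46 (4.53 to 9.12). Epha7 was 1.98 (1.39 to 2.79) times as high in library 1 and 1.03 (0.323 to 2.51) in library 2. Mecom, held low in members by the rule, was 5.36 (4.49 to 6.39) and 2.56 (1.86 to 3.45) times as high in these neighbours. F13a1 lay at 0.272 (0.231 to 0.318) and 0.333 (0.259 to 0.422), and Gapdh at 0.875 (0.725 to 1.05) and 0.670 (0.486 to 0.904). RNA was not used to find the neighbours other than through the members they adjoin. The rest leaves these neighbours out, so these ratios cannot be set against those of members over all other nuclei. In library 1 the neighbours had 93.4 CPM of Itga2b, 448.0 of Prkg1, 191.6 of Gata2 and 1656 of Angpt1. Members there had 269.5, 891.9, 282.3 and 2663. In library 2 Gata2 (181.7 against 149.0) and Angpt1 (1195 against 1154) were not lower in the neighbours.

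Between the libraries, 15 genes had at least 50 UMIs in members of each, and 4 of them (26.7%) differed 2-fold, all higher in library 2. The calmodulin kinase Camk1d was 2.51 times (2.33 to 2.70) as high in library 2, and 2.37 times in the other nuclei. Cdk8 was 2.09 (1.88 to 2.32) times as high, and 1.77 times in the other nuclei. Among genes with fewer UMIs, Angpt1 was at 0.434 (0.291 to 0.625) and Meis1 at 0.365 (0.172 to 0.689) of library 1, and at 0.497 and 0.481 in the other nuclei. Med12l was at 1.21 (0.688 to 2.04), and at 0.871 in the other nuclei. These differences between libraries belong to no group.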

How the data were processed

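The authors deposited 1 matrix of raw counts that pools both libraries, made with Cell Ranger ARC 2.0.0 against GRCm38 (mm10). It lists UMIs in 32272 rows of genes and transposition counts in 174339 rows of peaks. The submitters' processing notes also name Seurat 4.0.3 and Signac 1.3.0. The matrix held 0 mitochondrial gene rows. Nuclei were kept here at 200 or more genes and 1000 to 50000 counts in peaks, and those outside the members held medians of 1634 and 1515 UMIs. RNA is given as counts-per-million (CPM) of the UMIs outside the ribosomal-locus genes Gm42418, Gm26917 and AY036118, summed over nuclei. The members and gene lists were chosen with earlier results of these data known. Shares carry Clopper-Pearson intervals, CPM exact Poisson and ratios exact conditional binomial intervals (Python 3.11.15, scipy 1.17.1). UMIs remove copies made by PCR, while ATAC counts were halved for intervals. No significance test was run, since cells are not replicates.

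The named genes were to be the 15 largest and 10 smallest ratios among genes with 50 UMIs in each library, and list genes with at least 20 UMIs in members of each library. Since 17 genes had 50, the order of ratios in library 1 among genes with 10 expected UMIs was used, and list genes below that minimum that the text names were chosen after their values were seen. Start sites and introns come from GENCODE vM21 on GRCm38, which held 99.6% of the gene IDs. The rule for calling genes and peaks was run on simulated counts with known changes. Results that need items withheld here are not reported, and the stem cell list, the erythroid list and the erythroid gate are given without them, a choice made after the data were seen.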

Additional observations from a re-analysis of the deposited data

How the results depend on the processing

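No paired analysis was possible because each label group held 1 sample and no test was made. The shares of members in libraries 1 and 2 were 3.74% and 0.946% with a marker minimum of 3, 1.39% and 0.143% with 5, 2.78% and 0.956% with at least 500 genes per nucleus, and 3.67% and 1.56% with the rule on thinned nuclei. The early progenitor list in library 1 was 1.95 with a marker minimum of 3, 1.92 with the thinned rule and 1.73 without Angpt1 and Meis1. It lay above 1 in 20 of 20 alternatives over both libraries. Those alternatives share most of their nuclei and a list chosen with earlier results known, so they are not independent measures. ATAC at the 4 marker genes in library 1 was 1.10 without the intronic Mdga1 peak. Genes 2-fold higher in both libraries numbered 1 with a marker minimum of 3, 3 with the thinned rule, 1 with the halved minimum count and 70 in library 1 alone. Genes lower in both numbered 1 at a fold of 1.5 and 153 in library 1 alone. Peaks higher in both numbered 30 with a marker minimum of 3, 87 with the thinned rule, 51 with the halved minimum count and 403 in library 1 alone, and peaks lower in both 4, 10, 3 and 2754. In library 1 alone, higher genes numbered 111 with a marker minimum of 3, 45 with 5, 171 with the halved and 25 with the doubled minimum count, and 303 at a fold of 1.5. Lower genes numbered 394, 44 and 388 under the last 3 of these. Higher peaks numbered 1124, 181, 724 with the thinned rule, 1920, 32 and 1960, and lower peaks 5717, 1403, 4199, 8890, 391 and 5321, in the same order. More nuclei or lower minimums raise such counts by construction. The other 94 of 140 alternatives stayed within the counting interval or within 1.5 times the count, among them those without the 5% of nuclei with the most UMIs and those limited to 1000 to 4000 UMIs. Many of the 94 are counts of genes or peaks in both libraries that stayed at 0. They say little, since few features reach the minimum in library 2. Library 2 held 28 members, so single genes there rest on few UMIs.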

Other observations

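Families of the marker genes were read as lists without the marker genes themselves. Relatives and partners of Dach1, with the Eya genes, summed to 50 UMIs in members of library 1, a ratio of 1.45 (1.07 to 1.93), and to 4 in library 2, at 1.18 (0.321 to 3.03), with the phosphatase Eya1 at 28 UMIs and a ratio of 2.02 (1.33 to 2.95) in library 1. Other Eph receptors and ephrins summed to 5 and 2 UMIs, at 0.363 (0.117 to 0.852) and 0.834 (0.101 to 3.03). Other SLC24A exchangers had 2 and 0 UMIs.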
